A study of Mus musculus with 7 samples.

Results

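The mRNAs of the cytosolic ribosomal proteins were described in the reads of an RNA immunoprecipitation study of mouse embryonic stem cells. Members were nuclear protein-coding genes whose symbol is Rpl or Rps plus a number, with Rpsa, Rplp0, Rplp1 and Rplp2 and without the Rps6k kinases. This gave 80 of 21938 nuclear protein-coding genes, of which 49 belong to the large subunit and 31 to the small subunit. The symbol rule takes the paralogs Rpl3l, Rpl10l, Rpl39l and Rps27l. It leaves out genes such as Rps3a1, Fau and Rack1, which also encode proteins of the cytosolic ribosome, and the paralogs Rpl22l1, Rpl7l1, Rpl36al and Rps27rt.

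The study sequenced RNA recovered from nuclear lysates with an antibody to Ezh2, the methyltransferase subunit of the Polycomb complex PRC2, bound on protein A agarose. It asked which RNAs associate with that complex. Of its 7 libraries, 5 are from wild-type cells of strain 129X(M.castaneusX129) with the Ezh2 antibody, namely an original library, a technical replicate of it, a biological replicate, and a deeper run of 2 lanes from each of the original and the biological replicate. A further library is from Ezh2-null cells, strain given as M.musculus, with the same antibody, and another from the 129X(M.castaneusX129) cells with IgG. All cells are labelled embryonic stem cells, and culture with LIF, which keeps such cells undifferentiated, is described in the labels. The files hold 1 table of read sequences with their counts, which neither a header nor a label ties to a library. It was read as 1 pool, without replicates, so no value below compares the antibody with IgG, or Ezh2-null with wild-type cells, and none is an enrichment.

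The table held 34072479 reads, of which 31529044 were long enough to be searched, and 36.1% of these were given to a single gene. Of 10 stem cell marker genes, 8 had at least 50 sense reads of their own, against 29.1% of all nuclear coding genes. Lefty2 had 66761, Pou5f1 had 429, Nanog had 37 and Utf1 had 6. With shared reads counted, the 10 ranged from 0.155 to 877 reads per kb and per 1000000 searched reads (RPKM). Nanog had a further 2216 shared reads and stood at 32.3 RPKM, and Pou5f1 stood at 10.5 RPKM. Of 7 fibroblast genes, 6 had at least 50, with Postn at 5268, and the 7 ranged from 3.88 to 54.0 RPKM. Of 7 early differentiation genes, 1 had at least 50, and Gata6 had none. The cell source of the ribosomal protein reads was not tested, and in a bulk pool more cells of a type and more RNA per cell cannot be told apart.

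Ribosomal proteins join ribosomal RNA in the nucleolus to form the small subunit, which decodes mRNA, and the large subunit, which forms peptide bonds. Their mRNAs are short, abundant in growing cells and begin with a pyrimidine tract, the TOP motif, through which mTOR signalling controls their translation. Mammalian genomes hold many processed pseudogenes of these genes, which are copies of the spliced mRNA put back into the genome. A short read of a ribosomal protein mRNA may therefore match several places equally well.

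The positions that carried most reads are shown first, since their letters set which gene a read can be given to. Each line is RNA-sense sequence of a GENCODE M21 transcript (GRCm38), written 5′ to 3′ over the 34 bases that a 40-base read covers after its 6 leading bases. A read that is sense to the RNA runs leftward from the last letter, and an antisense read runs rightward from the first. For Rpl6 no capitals are used, because each of the 3 windows also stands without a difference in a pseudogene, Gm6136 or Gm6807. In the other lines capitals mark letters that differ between the gene and its closest linked pseudogene.
Rpl6, transcript base 811, chr5:121208543-121208782 across an intron: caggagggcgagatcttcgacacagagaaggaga
Rpl6, transcript base 796, chr5:121208528-121208561: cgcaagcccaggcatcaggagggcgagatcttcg
Rpl6, transcript base 781, chr5:121208513-121208546: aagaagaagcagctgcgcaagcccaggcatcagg
Rpsa, transcript base 1090, chr9:120131488-120131521: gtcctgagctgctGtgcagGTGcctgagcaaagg
Rpsa-ps3 on chromosome 11, the same stretch: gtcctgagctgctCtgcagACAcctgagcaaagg
Rpl4, antisense at transcript base 724, chr9:64177062-64177345 across an intron: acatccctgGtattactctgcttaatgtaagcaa
Gm5835 on chromosome 1, the same stretch: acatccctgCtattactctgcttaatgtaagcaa
Rps26, antisense at transcript base 266, chr10:128626214-128626482 across an intron: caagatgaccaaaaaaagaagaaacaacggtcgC
Rps26-ps1 on chromosome 8, the same stretch: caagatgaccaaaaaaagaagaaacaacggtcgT
All genes in these lines lie on the plus strand except Rps26, which lies on the minus strand. The Rpsa window begins in the last codons and ends 27 bases after the stop codon, and the windows of Rpl6 and Rpl4 are coding sequence. The Rps26 window starts just before the coding sequence and runs into its first codons. The 4 letters by which Rpsa differs from Rpsa-ps3 stand against 0 for Rpl6 and 1 for Rpl4 and Rps26.

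Reads that match ribosomal protein mRNAs were present in the pool, and most of them could not be given to these mRNAs alone. The 80 genes had 16559 single-gene sense reads, which are reads that match the RNA strand of that gene best and match no other gene as well. A further 61764 sense reads matched a member and at least 1 other gene equally well, so that 78323 sense reads touched a member. The shared part was 78.9% of the total (95% Clopper-Pearson interval 78.6% to 79.1%), against 22.9% over all nuclear coding genes (22.9% to 23.0%). These intervals, and all others below, cover counting error only, since reads without molecular identifiers are not independent molecules.

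Nearly all sharing was with pseudogenes. Of the shared sense reads, 53443 (86.5%) matched a member and pseudogenes alone, and 6723 (10.9%) also matched another kind of gene. A further 1177 (1.91%) matched other genes and no pseudogene, 410 matched a gene that overlaps the member, and 11 matched another member. Shared reads were not poorer matches: 90.2% of them had no mismatch, against 84.7% of the members' single-gene sense reads and 88.3% of those of all coding genes. Much of the members' sequence was not unique to them. In the median member, 52.0% of the 34-base windows of the coding transcript were found in no other gene, against 100% in the median coding gene. Within coding sequence alone the median was 9.20%, and 41 of the 80 members had under 10% of their coding windows to themselves. The median member transcript, at 882 bases, was also short beside the median coding gene, at 2568 bases.

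The choice of reads decided how large the group appeared. Single-gene reads put the members at 0.282% of nuclear sense reads (0.278% to 0.287%), and reads of several genes, counted once, gave 1.001% (0.994% to 1.01%). With single-gene reads, 38 of 80 members had at least 50 sense reads, against 29.1% of all nuclear coding genes. With shared reads counted for each gene they touch, 73 of 80 did, against 45.7% of all nuclear coding genes. Among those 73 members, 57 had more shared than single-gene reads, against 51.7% of coding genes with at least 50 reads. The median member had 291.5 sense reads in all and 10.4 RPKM, against 0.428 RPKM over all coding genes and 2.58 RPKM over coding genes with at least 50. These levels count a shared read fully for the member, so they are upper values in that respect only. They also divide by the whole coding transcript, which is long in some members. Within coding sequence alone the median member had 12.9 RPKM. Rps15a, with a transcript of 5179 bases, had 4.56 RPKM over all of it and 46.5 RPKM within coding sequence.

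**Figure D1:**
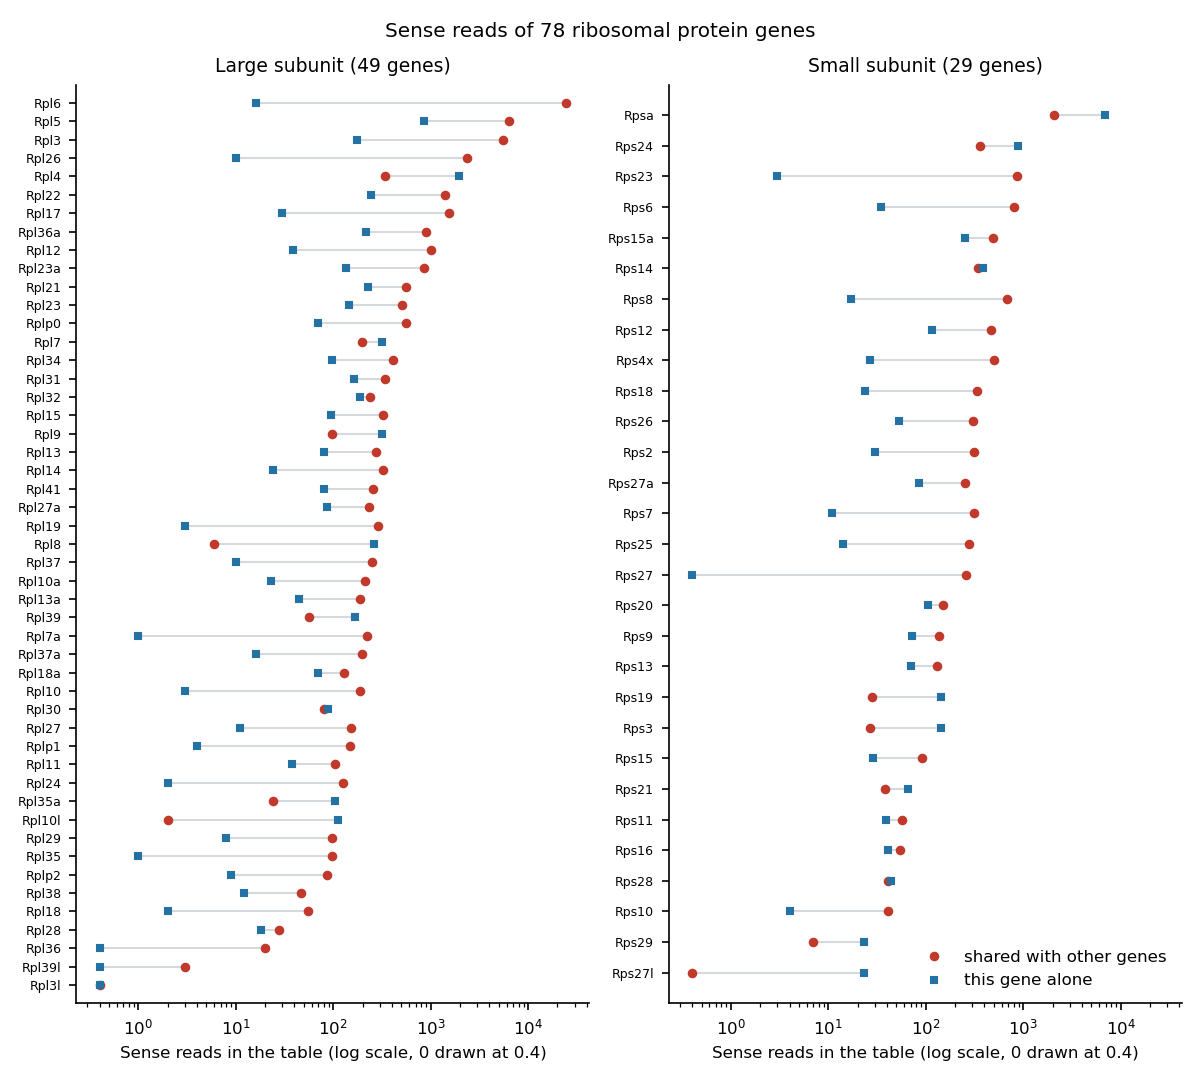
Sense reads of 78 of the 80 genes on a log axis, with large subunit genes in the left panel and small subunit genes in the right one. Red circles are reads shared with other genes and blue squares are reads of the gene alone. Circles lie to the right of squares in most rows, with Rpl6 at 24562 shared and 16 single-gene reads, while Rpsa, Rpl4 and Rps24 are among the genes with the reverse order.

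Rpl6, a protein of the large subunit, was the extreme of that pattern. It had 16 single-gene sense reads (95% Poisson interval 9.15 to 26.0) and ranked 57th of the members by them. Its 24562 shared sense reads ranked it first, at 614 RPKM, and were 39.8% of all shared reads of the group. The reads lay in a short stretch: 96.6% of those on the coding transcript started at transcript bases 650 to 849, the 200-base window that held most of them. The highest positions were base 811 with 4828 reads, base 796 with 3965 and base 781 with 2274, in codons 247, 242 and 237. Of all Rpl6 sense reads, 98.5% also matched Rpl6l on chromosome 10, 96.4% Gm6136 on chromosome 1 and 45.6% Gm6807 on chromosome 19. None of these 3 pseudogenes had a sense read of its own. Of the 15 pseudogenes linked to Rpl6, 5 had such reads, 25 in all. The 36-base reads gave 3522 of the shared reads and the 40-base reads 21024.

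Rpsa, the laminin receptor protein of the small subunit, showed the opposite. Its 6841 single-gene sense reads (6680 to 7005) were 41.3% of those of all members, and 2064 reads (23.2%) were shared. Nearly all its own reads lay at the stop codon: 6806 of 6841 (99.5%) started within 40 bases after it, at 38 of the gene's 47 start positions. That range was chosen after the values were seen. Only 3.38% of the coding windows of Rpsa were unique, against 54.5% of all windows of its transcript. Single-gene reads could therefore hardly lie in most of its coding sequence. Base 1090 alone held 3073 reads, base 1067 held 884 and base 1088 held 782. Rpsa has a shorter annotated coding isoform, and base 1090 lay 38 bases before the end of that isoform and 848 before the end of the longer one. The shared Rpsa reads lay elsewhere, with 1082 at base 800, in codon 209, where Rpsa-ps10 has the same letters. The 40-base reads gave 5796 and the 36-base reads 1044 of the single-gene reads, while the shared reads split into 911 of 40 bases and 1031 of 36 bases.

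**Figure D2:**
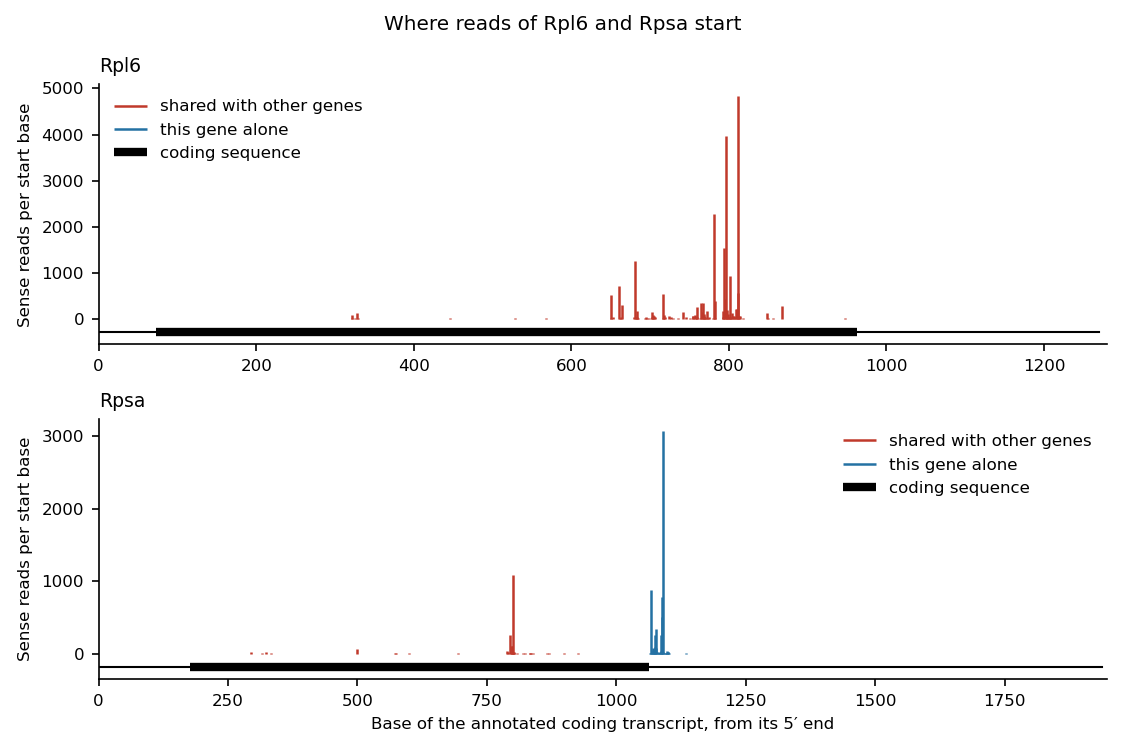
Sense reads by the transcript base at which they start, for Rpl6 above and Rpsa below, on linear axes with the coding sequence as a thick line. Red lines are shared reads and blue lines are reads of the gene alone. Of the coding windows of Rpsa 3.38% are unique, so blue lines can hardly stand in most of its coding sequence. Rpl6 reads are shared and stand mostly between bases 650 and 849 of the coding sequence, with the highest at base 811, and the single-gene reads of Rpsa stand at the stop codon, with 3073 at base 1090.

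The other large subunit mRNAs with most reads followed Rpl6 more often than Rpsa. Rpl5, which carries 5S ribosomal RNA and binds Mdm2 when free, had 849 single-gene and 6358 shared reads, and 88.0% of all its sense reads also matched Gm15500 on chromosome 7. Rpl3, which lies near the peptidyl transferase centre, had 175 and 5461, and 96.8% of its reads also matched Rpl3-ps1 on the X chromosome. Rpl26, a protein beside the exit tunnel, had 10 and 2383. Rpl17, also beside the exit tunnel, had 30 and 1523. Rpl12, at the base of the stalk, had 39 and 996, and Rpl22, known for its role in mouse T cell development, had 243 and 1394. Rpl4, Rpl8, Rpl7 and Rpl9 had more reads of their own than shared, with 1960 against 339 for Rpl4, 263 against 6 for Rpl8, 316 against 199 for Rpl7 and 315 against 97 for Rpl9. Rpl21 had 226 single-gene and 560 shared reads. The single-gene reads of Rpl9 and Rpl21 all lay on isoforms other than the coding transcript used for levels. Large subunit members had a median of 9.79 RPKM with shared reads counted.

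Of the small subunit mRNAs, Rps24, a gene of Diamond-Blackfan anaemia in people, came after Rpsa with 882 single-gene and 357 shared reads. Rps14, lost in the human 5q- syndrome, had 390 and 347. Rps15a had 251 single-gene and 493 shared reads. Rps19, the gene most often mutated in that anaemia, had 143 and 28, and Rps26, a further gene of that disease, had 53 and 303. Rps4x had 27 and 506. Rps27a, made as a fusion with ubiquitin, had 86 and 255. Small subunit members had a median of 10.8 RPKM with shared reads counted, in a range of 1.46 to 146 RPKM. Within coding sequence alone the medians were 16.5 RPKM for the small and 11.6 RPKM for the large subunit, and no test of that difference was possible in 1 pool.

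The stalk of the large subunit, which recruits translation factors, had few reads of its own. Rplp0, the base of the stalk, had 69 single-gene and 557 shared reads, Rplp1 had 4 and 150, and Rplp2 had 9 and 86. Rpl11, the partner of Rpl5 in the 5S particle, had 38 and 105, far under Rpl5 in both counts. Rpl23, which also binds Mdm2, had 146 and 506. Members with no single-gene read included Rps27 with 259 shared reads, Rpl36 with 20, Rpl39l with 3 and Rpl3l with none. At this depth a 0 leaves room for up to 3 reads, taken as a one-sided limit. The windows of Rpl3l, a paralog used in muscle, and of Rpl39l, a paralog of the testis, were 100% and 98.2% unique, so reads of these mRNAs could have been given to them, while 1.28% of Rps27 windows were. Rpl10l, the testis copy of X-linked Rpl10, had 113 single-gene reads at 7 start positions, 52 of them at 1, and 8 of the 113 lay in coding sequence. Rpl10 had 3 single-gene and 187 shared reads. Of coding windows, 69.1% were unique in Rpl10l and 0% in Rpl10, so single-gene counts do not rank these genes. Rps27l, a paralog that p53 induces in human cells, had 23 single-gene and no shared reads.

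Genes of ribosomal proteins and paralogs outside the symbol rule also had more shared than single-gene reads in most cases. So did 51.7% of coding genes with at least 50 sense reads. Rps3a1 had 70 single-gene and 2075 shared reads. Rack1, a scaffold on the small subunit, had 158 and 659, and Fau, a fusion with Rps30, had 25 and 39. Rpl7l1 had 363 and 1017, Rpl36al had 0 and 75, and Rpl22l1 had 3 and 3. Among 17 other TOP mRNAs, a list that holds Rack1 and Fau again, 14 had at least 50 single-gene sense reads, against 29.1% of all nuclear coding genes, and the median was 29.3 RPKM. Of 78 mitochondrial ribosomal protein genes, which serve the separate ribosome of that organelle, 28 had at least 50, a share near that of all coding genes, and the median was 1.56 RPKM.

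Pseudogenes were next examined where their letters differ from the gene. There were 1483 processed pseudogenes that shared at least 1 window with a member, with a median of 12 for each member and up to 151, for Rpl7a. Of these, 143 had a sense read of their own, 669 reads in all, and none reached 50. Per kb of sequence unique to them they had 0.0486 RPKM. The members' coding transcripts had 8.50 RPKM per unique kb, and 3.97 without Rpsa. The member was higher than the sum of its pseudogenes in 65 of 79 families, both were at 0 in 6, and the member was lower in 8. A member's level here counts only reads on its coding transcript, so its reads on other isoforms are left out. Rpl9, with 315 single-gene sense reads, was thus among the 6, and Rpl21, with 226, and Rpl36a, with 219, were among the 8. Rpl36, the member with the highest pseudogene level among those 8, had 0 reads of its own and 24 on its pseudogenes, 23 of them at 1 position of Rpl36-ps12. These levels describe the parts in which gene and pseudogene differ, and from which copy the shared reads came was not tested. A wider count took every sense read that matched such a pseudogene, alone or with other genes, better than any member. It held 46430 reads, of which 45264 also matched genes that are neither members nor pseudogenes of this kind, and 788 had a member at 1 further mismatch. The pseudogenes of Rpl17 held 40496 of them, with 40442 on 1600029O15Rik, whose transcript has 1809 bases, beside 1553 sense reads that touched Rpl17. Of the 40496, 40428 also matched such other genes and 17 had Rpl17 at 1 further mismatch, so this count is not a level of Rpl17 pseudogenes. Those of Rpl23 held 2250, beside 652 for Rpl23, and those of Rpl29 held 1617, beside 105 for Rpl29. Of these, 2201 and 1549 also matched such other genes, and 44 and 20 had the member at 1 further mismatch. In the Rpl6 family 32 reads matched a pseudogene better, beside 24578 for Rpl6.

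**Figure D3:**
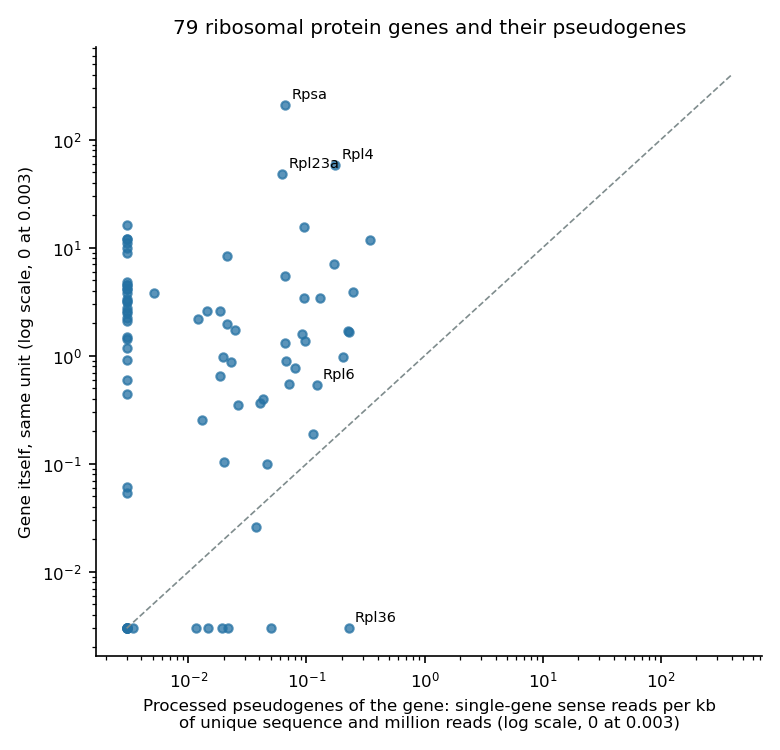
The vertical axis gives single-gene sense reads on the coding transcript of 79 members, per kb of unique sequence (RPKM). The horizontal axis gives those in the processed pseudogenes of each. Members' reads on other isoforms are left out, so a member at 0 may have reads of its own. Both axes are log scales with 0 drawn at 0.003, and the dashed line marks equal levels. In 65 families the point lies above the line, with Rpsa the highest, and Rpl36, at 0 on the vertical axis, lies farthest to the right of the line.

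Single-gene reads of the members lay in coding sequence less often than their shared reads did. Each read was placed by the middle of its matched part, which lies upstream of a sense read's start position. By this, on the coding transcript, 43.4% of single-gene sense reads (42.5% to 44.3%) lay in coding sequence and 54.6% downstream of it, against 84.5% and 14.4% over all coding genes. Rpsa decided that split, with 1902 of its reads placed in the last codons and the stop codon although they started after it, and without it 61.9% lay in coding sequence and 33.7% downstream. Among windows unique to members, 18.6% lay in coding sequence and 53.7% downstream, so their own reads were more often coding than their unique sequence. Shared sense reads lay in coding sequence in 97.4% of cases. An exon junction was crossed by 5.90% of single-gene sense reads, 12.9% without Rpsa, and 8.24% of shared sense reads. Over all coding genes it was crossed by 18.0% of single-gene sense reads. Among windows unique to members 5.25% crossed a junction, and among all their windows 10.9%. The share was 7.66% in windows of coding genes with at least 50 sense reads.

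**Figure D4:**
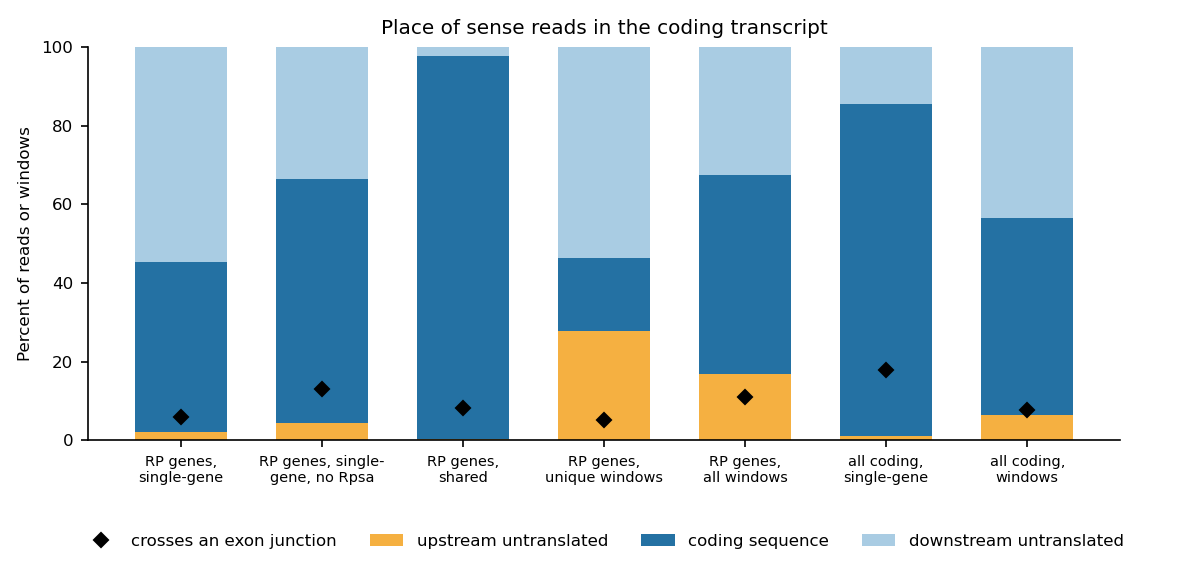
Percent of reads or 34-base windows in the upstream untranslated, coding and downstream untranslated part of the coding transcript, as stacked bars, with black diamonds for the percent that cross an exon junction. The 5 bars on the left are ribosomal protein (RP) genes and the 2 on the right are all nuclear coding genes. Shared reads are 97.4% coding, and single-gene reads of RP genes are 43.4% coding, against 84.5% over all coding genes.

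Some of the members' reads did not match the coding transcript used and were placed on isoforms annotated as retaining an intron. Such a read was placed on the longest isoform of its gene that it matched, so a shorter isoform of another kind may match it too. By this placement such isoforms held 3063 single-gene sense reads, 18.5% of the total, against 3.80% over all coding genes. These shares leave out shared reads, which were 78.9% of the members' sense reads and 22.9% of those of all coding genes. Processed pseudogenes copy the spliced mRNA, so reads shared with them are mainly exon reads. How much of the difference comes from leaving them out was not tested. Rpl5 gave 823 of its 849 single-gene reads in this way, Rps24 gave 692 of 882 and Rps14 gave 221 of 390. All 219 single-gene reads of Rpl36a, all 116 of Rps12 and all 70 of Rps13 were of this kind, as were 168 of 175 for Rpl3 and 128 of 143 for Rps19. Rpsa and Rpl4 had 15 and 1. The highest single position of this kind held 353 reads of Rpl5. These genes were looked at after the values were seen. Reads of introns that no annotated isoform holds were not searched.

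The median member with at least 50 single-gene sense reads had 17 start positions with 29.0% of its reads at the highest. The median coding gene with at least 50 such reads had 25 positions and 21.6%. Members are shorter and have less unique sequence in which a single-gene read can start. A single position held over 50% of the reads in 3 of 38 such members, a share near the 7.2% of coding genes with at least 50. These members were Rps27a with 74 of 86 reads, Rpl23a with 112 of 135 and Rplp0 with 41 of 69.

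Antisense reads made up 17.0% of the members' single-gene reads (16.5% to 17.5%), with 3393 antisense beside 16559 sense reads, against 12.5% over all coding genes. The order rested on the choice of reads: with no other gene within 1 further mismatch the shares were 10.8% in members and 11.9% over all coding genes. Without Rpsa the members had 25.9%. By start positions the order was also the other way, at 20.5% in members and 23.0% over all coding genes. Shared reads had 12.7% antisense. The large subunit had 27.2% antisense and the small subunit 8.54%, but 17.4% without Rpl4 and 22.9% without Rpsa, which had no single-gene antisense read. These stood beside 18.1% in mitochondrial ribosomal protein genes and 3.68% in other TOP mRNAs. Rpl4 gave 1490 antisense reads beside 1960 sense reads, a share of 43.2% (41.5% to 44.9%). Base 724 alone held 609 of them, and 174 lay at base 929.

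In 3 of 43 members with at least 50 single-gene reads the interval of the antisense share was wholly over 50%, against 12.4% of coding genes. Rps26 had 311 antisense and 53 sense reads (85.4%, 81.4% to 88.9%), of which 239 antisense reads lay at base 266. Rps4x had 127 and 27 (82.5%), and Rpl29 had 95 and 8 (92.2%). Rpl36a had 234 antisense and 219 sense reads (51.7%, 46.9% to 56.3%), with 206 antisense reads at base 52. Rpl8 had 141 antisense reads at 27 start positions beside 263 sense reads, a wider spread than in those genes, and Rps15a and Rps19 had 91 and 89. Many antisense reads of Rpl4, Rps26, Rps4x, Rpl29 and Rpl36a matched another gene with 1 further mismatch. When reads with another gene at 1 further mismatch were left out, 678 remained of 1490 for Rpl4, 6 of 311 for Rps26, 17 of 127 for Rps4x, 7 of 95 for Rpl29 and 8 of 234 for Rpl36a. All 141 of Rpl8, 91 of Rps15a and 89 of Rps19 remained.

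**Figure D5:**
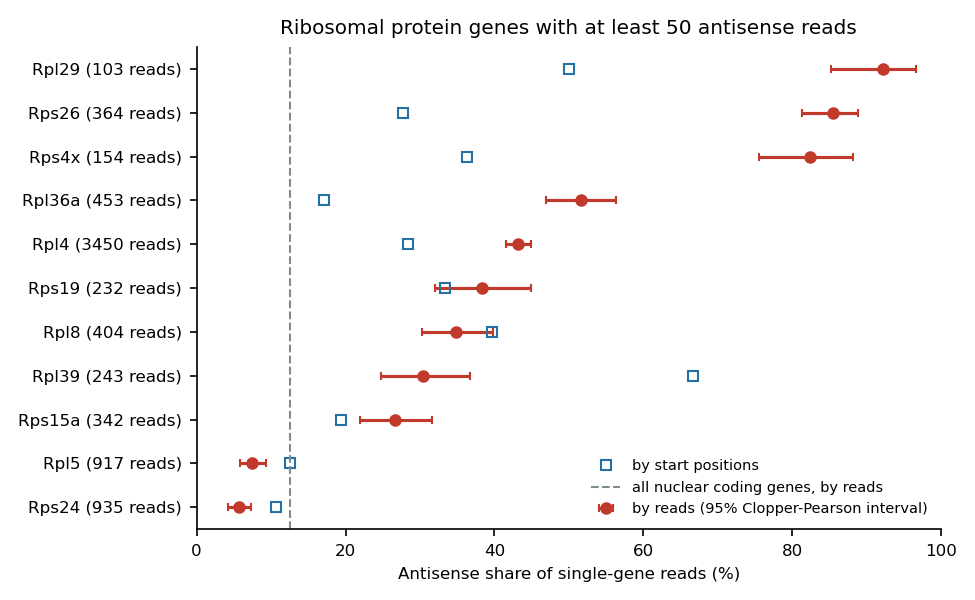
Antisense share of single-gene reads in 11 members with at least 50 antisense reads, by reads as red circles with 95% Clopper-Pearson intervals and by start positions as open blue squares. The dashed line is the share over all nuclear coding genes by reads, 12.5%. Rpl29, Rps26 and Rps4x have intervals above 50% by reads but lie at or under 50% by start positions.

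Antisense reads of the members crossed exon junctions more often than sense reads did, for the most part in a few genes. On the coding transcript 1526 of 2960 did so (51.6%, 49.7% to 53.4%), against 5.90% of the members' single-gene sense reads, or 12.9% without Rpsa. The share was 11.3% in the antisense reads of all coding genes. Of the members' windows 10.9% crossed a junction, and of their unique windows 5.25%. Rpl4 gave 642 of the 1526 antisense reads, Rps26 gave 302, Rpl36a gave 230, Rps4x gave 127 and Rpl29 gave 91. In Rpl36a and Rps26 this was 98.7% and 98.4% of the antisense reads on the coding transcript, and in Rps4x and Rpl29 it was 100%. Rps15a had none among 91, and Rpl8 had 5 of 139. The junction lay 9 letters into the Rpl4 window shown above and 7 letters into that of Rps26. A read that crosses a junction in antisense orientation has the letters of a spliced copy, and from which copy these reads came was not tested.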

How the data were processed

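Per the labels' protocols, RNA from nuclear lysates was precipitated, extracted with Trizol and made into cDNA by template switching. The deposited table gives each distinct read sequence, of 12 to 40 bases, and its count, not scaled to depth, with 6252281 reads of 36 bases and 24772940 of 40. The labels and the table do not define how the authors collapsed or filtered reads. Abbreviations in the table's name may stand for a wild-type replicate and for the removal of ribosomal and homopolymer reads. They are not defined and were not used to assign a library, and what such a filter would remove was not tested. The submitters' processing notes name the build mm9. As the table gives no positions, GRCm38 (GENCODE M21) was used for annotation. The members and lists were chosen with earlier results of these data known.

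The first 6 bases were dropped, where up to 36.6% of the members' shared sequences mismatched at base 1, and at least 20 had to remain. Reads were matched to transcripts with bwa 0.7.19, with up to 2 mismatches, no gaps and up to 1000 listed placements. Strain differences from the reference use up mismatches. Single-gene reads had all their best placements in sense on 1 gene (antisense ones only on genes that overlap it) or all in antisense on 1 gene, and this was tested on simulated reads. A start position is the 5′ end of the matched part. Regions were given by the middle of the matched part and refer to 1 coding transcript per gene, the tagged principal isoform and then the longest, where the plan had named the longest. A junction was crossed with at least 5 bases on each side. RPKM was computed from the deposited counts per kb of that transcript and per 1000000 searched reads. Intervals are Clopper-Pearson for shares and exact Poisson for counts (scipy 1.17.1), at 95%. Named genes were the 12 members with most single-gene sense, 8 with most antisense and 8 with most shared reads, those at 0, and genes named for their role. Other genes were named after their values were seen, as were the sequences shown, which are the highest positions of each kind. A few of these genes are left unreported in the text and figures. Alternatives counted sequences or start positions once, took reads of 36 or 40 bases or without a mismatch, asked for no other gene within 1 further mismatch, used minima of 20 or 200, or left out Rpsa. Introns were not searched, as no genome sequence was used here.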

Additional observations from a re-analysis of the deposited data

How the results depend on the processing

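With 1 pool there is no spread between replicates, and values were compared with their counting intervals, so that nearly all moved. The members' 0.282% share of nuclear sense reads was 0.349% in 36-base and 0.275% in 40-base reads, 0.295% by sequences, 0.324% by start positions, 0.275% without mismatches, 0.261% with no other gene within 1 further mismatch, 1.001% with reads of several genes and 0.166% without Rpsa. The shared part of 78.9% was 81.1% in 36-base and 78.4% in 40-base reads, 77.8% by sequences, 71.6% by start positions, 79.9% without mismatches and 86.0% without Rpsa. The coding share of 43.4% was 53.4% in 36-base and 41.4% in 40-base reads, 56.5% by sequences, 57.0% by start positions, 39.4% without mismatches, 34.6% with no other gene within 1 further mismatch and 61.9% without Rpsa. The antisense share of 17.0% was 19.9% in 36-base reads, 19.0% by sequences, 20.5% by start positions, 16.5% without mismatches, 10.8% with no other gene within 1 further mismatch and 25.9% without Rpsa. The 38 members with at least 50 reads were 5 in 36-base reads, 14 by sequences, 2 by start positions, 13 at a minimum of 200 and 73 with reads of several genes. The other 6 settings moved values by less than their interval, or the count of members by less than 1.5 times. The cause was not tested, except that a smaller pool or a higher minimum leaves fewer members by construction. No paired analysis was possible because the table is 1 pool that carries no replicate number. The table's counts hold copies made by PCR, which cannot be told from separate molecules, and no value can be tied to Ezh2 binding.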
